A study of Rattus norvegicus with 23 samples.

Results

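Genes of the vascular endothelium, the cell layer that lines all blood vessels, were followed across 23 bulk RNA libraries from the femora of female Wistar rats. The set was a list of 35 symbols and members were the rows of the deposited tables that carry one of these names. Of the 35 symbols, 34 were found among the 30562 rows, and all 34 were among the 15271 genes tested. No row is named Cldn5, the gene of the tight junction protein claudin 5. A row named Cdc45 (chromosome 11, 82211475 to 82214992 in the mRatBN7.2 build) carries a claudin 5 description, so its identity is uncertain and it was not counted as a member.

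The 23 libraries, each a bulk polyadenylated RNA library, fell into 5 groups by their titles. MetOP is the labels' name for metabolic osteoporosis, a model in which rats are fed fat-rich chow and given L-NAME, a blocker of nitric oxide synthesis. All 4 MetOP groups carried both. MetOP rats received semaglutide, a GLP-1 receptor agonist, together with PYY3-36, a gut peptide (the combination, n = 5), semaglutide alone (n = 5), PYY3-36 with saline (called PYY here, n = 4) or saline alone (MetOP saline, n = 5). Healthy controls (n = 4) received saline, and their titles name the standard condition and carry the mark oLN where the MetOP titles carry LN. The peptide name ends in a different number in each treatment label of the PYY group, so that all 4 libraries belong together rests on their shared title. MetOP titles hold hfd followed by lfd, the second of which is not explained. The sources used here give neither ages nor doses. All libraries carry the same batch label. Since no label says that each library is another rat, the p-values speak only of the spread among these libraries, which may be technical.

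Endothelial cells are held together by adherens, tight and gap junctions and are kept alive and shaped by VEGF receptors and by the angiopoietin receptor Tie2. Their identity is set by ETS and SoxF transcription factors. In bone, arterioles feed a dense capillary bed near the growth plate, called type H for its high CD31 (Pecam1) and endomucin (Emcn), which accompanies bone formation. This bed drains into the wide marrow sinusoids, whose scavenger receptors, among them the stabilins, clear hyaluronan and other ligands from blood. Sox17 marks arterial endothelium and VEGFR3 (Flt4) marks sinusoids and lymphatics. In bulk RNA, fewer cells of a type and less RNA per cell cannot be told apart.

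Many members were high or low in the same libraries, as given below, but their correlation was not measured. The DNA before the transcription starts of the members was searched for a short motif of each of the factor families that set endothelial identity. RefSeq promoter sequences (build GRCr8, the 250 bases before the start) were found for 24 of the 35 symbols. The ETS motif AGGAAG, read on both strands as AGGAAG or CTTCCT, was present in 13 of these 24 promoters (54.2%). It was present in 29.4% of all 27457 promoters of the same length. The SOX motif AACAAT, read as AACAAT or ATTGTT, was present in 3 of 24 (12.5%) and in 10.3% of all. Both motifs were chosen with the data in view, and the letters say nothing about binding. Sequences are shown for the type H gene Emcn, with 2 matches to the ETS motif and 1 to the SOX motif. They are also shown for the receptor gene Robo4 and the sinusoidal gene Stab2, with 1 ETS match each. Tspan7 is among several member promoters that match neither motif, so that absence of both is not particular to it. Shorter forms were not counted or marked, and GGAA, the middle of the ETS motif, stands unmarked in each stretch on 1 strand or the other. The sequences run 5′ to 3′ on the strand of the gene, with the matches in capitals.
Emcn (chr2:228564289-228564538, plus strand): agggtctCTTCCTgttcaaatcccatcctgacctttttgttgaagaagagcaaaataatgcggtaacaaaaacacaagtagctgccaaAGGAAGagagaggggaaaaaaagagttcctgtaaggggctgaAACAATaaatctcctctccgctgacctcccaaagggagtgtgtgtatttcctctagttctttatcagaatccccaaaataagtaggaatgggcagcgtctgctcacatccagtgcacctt
Robo4 (chr8:45308489-45308738, plus strand): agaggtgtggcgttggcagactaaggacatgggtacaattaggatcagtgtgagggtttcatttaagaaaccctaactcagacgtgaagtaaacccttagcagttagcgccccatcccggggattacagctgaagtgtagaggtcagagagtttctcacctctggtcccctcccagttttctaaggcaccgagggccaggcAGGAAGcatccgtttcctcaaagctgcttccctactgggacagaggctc
Stab2 (chr7:23320563-23320812, minus strand): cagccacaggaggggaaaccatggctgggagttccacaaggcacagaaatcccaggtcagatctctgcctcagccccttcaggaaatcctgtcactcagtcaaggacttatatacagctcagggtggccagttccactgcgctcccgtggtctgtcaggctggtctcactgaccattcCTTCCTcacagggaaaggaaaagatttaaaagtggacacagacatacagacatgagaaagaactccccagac
Tspan7 (chrX:14978628-14978877, minus strand): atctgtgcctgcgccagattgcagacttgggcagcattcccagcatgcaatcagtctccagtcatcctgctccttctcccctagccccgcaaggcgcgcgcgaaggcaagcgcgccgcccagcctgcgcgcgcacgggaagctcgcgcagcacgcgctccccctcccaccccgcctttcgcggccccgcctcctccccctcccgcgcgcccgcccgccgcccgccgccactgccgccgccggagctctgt

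Guanine and cytosine made up 73.6% of the Tspan7 stretch, against 44.4% in Emcn and 52.4% in both Robo4 and Stab2.

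Depth varied widely between libraries. Totals ran from 19.2 M to 40.7 M counts, of which mitochondrially encoded genes took 46.1 to 83.9%, so 4.28 M to 16.1 M counts were left for all other genes. The members held between 6538 and 49257 counts per library, or 0.0952 to 0.515% of the non-mitochondrial counts. A count of 0 allows up to 3 counts, which is 0.0594 to 0.200 CPM, the count scaled to the library total, depending on the library, and covers counting error only. Levels below are CPM scaled by edgeR's TMM factors unless they are given as FPKM, which is also scaled by transcript length. The endothelial markers Pecam1, Cdh5, Kdr, Tek, Tie1 and Erg were counted in every library, with at least 95 counts each.

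One PYY library stood apart from the rest of its group. PYY A220 had the lowest level of the 4 PYY libraries for 32 of the 34 members. Only 3 members lay above all 5 MetOP saline libraries in A220, against 28 in A215, 27 in A216 and 30 in A219, the other PYY libraries. Over all genes tested, 17.6% lay above the MetOP saline range in A220, 19.3% in A215, 19.6% in A216 and 15.6% in A219. In the combination group, A318 and A320 had 16 and 18 of 34 members above the MetOP saline range, against 17.5% and 22.8% of all genes, and A248, A251 and A253 had 2 each, against 16.4 to 23.7%. The semaglutide libraries had 1 to 8 members above it, against 17.5 to 22% of all genes. Healthy control A387 had 18 above it, against 17.1%, and the other controls 2 to 7, against 16.9 to 19.3%. Below the saline range lay 14 members in combination A251 and 9 in A253, against 20.2% and 16.6% of all genes. Semaglutide A241 had 13 below it, against 11%, and control A389 had 12, against 16.6%. PYY A220 had 6 below it, against 16.8%. The medians and some of the members described in most detail are also given without A220.

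**Figure D1:**
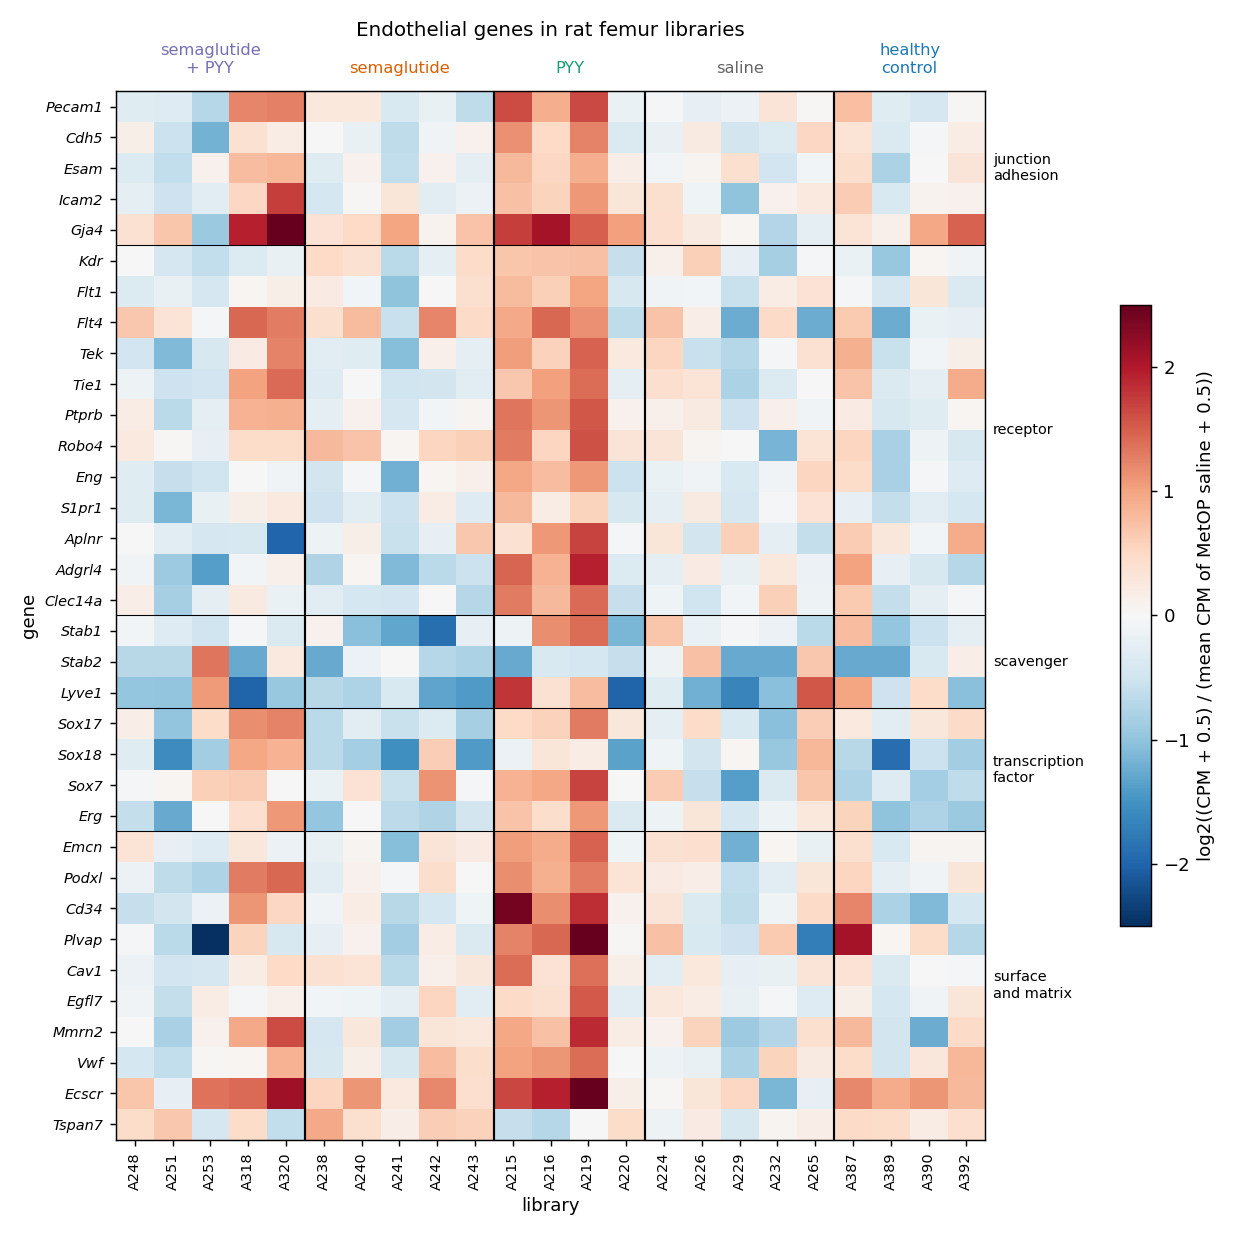
Heat map of the 34 members (rows, ordered by role) in the 23 libraries (columns, by group), as log2 of CPM + 0.5 over the mean CPM of MetOP saline + 0.5, with colours saturating at the ends of the scale. PYY A215, A216 and A219 form a red block across most rows, PYY A220 does not, and combination A318 and A320 are red in part of the rows.

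Per unit of transcript length, the members differed widely in level. In deposited FPKM averaged over the 23 libraries, the caveolar coat gene Cav1 came first (29.6), followed by the tetraspanin gene Tspan7 (14.5), Pecam1 (13.7), the tight junction adhesion gene Esam (11.2) and Emcn (11.1). Cav1 is also high in adipocytes and fibroblasts, and Pecam1 and Esam also occur on platelets. Sox17 stood in the 8th place at 5.58 FPKM. The last 4 places went to genes of sinusoids and lymphatics, with Stab1 at 0.693, Lyve1 at 0.468, Flt4 at 0.241 and Stab2 at 0.0451 FPKM. Stab2 had 295 counts over all libraries and 0 in 7 of them, Flt4 had 781 and 0 in 3, and Lyve1 had 926 and 0 in 2. Lyve1, a hyaluronan receptor gene, is annotated as a pseudogene in the deposited table, so its counts are uncertain.

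With PYY, set against MetOP saline to ask how the peptide alone bears on the model, most endothelial genes were higher, by a member median of 0.93 on the log2 scale against -0.01 over all genes tested. None passed the edgeR test after Benjamini-Hochberg adjustment over all 15271 genes, and neither did any other gene (0% called). The smallest adjusted p of a member was 0.839, shared by Ecscr, Ptprb and Cd34. By sign, 31 of 34 members were higher, against 49.5% of all genes, and 3 were lower, against 50.5%. Of the 34, 30 to 32 were higher under each other scaling, filter and tool tried and without each library. An unadjusted p under 0.05 was reached by 23 of 34 members on the higher side, against 3.46% of all genes, and 0 were lower, against 1.38%. Without A220 the member median was 1.13 and 26 members had such a p, and still none passed the adjustment. Without A219 the count was 12, and without saline A229 it was 15. With the skeletal muscle level as a covariate it was 16. The share of all genes at such a p was not computed for these other fits, so their counts have no background beside them.

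Adhesion genes of the junctions were higher with PYY in all 5 cases. Gja4, which encodes connexin 37, a gap junction protein of arterial endothelium, was at 8.26, 10.6, 6.92 and 4.85 CPM with PYY, against 3.03, 2.58, 2.20, 1.09 and 1.76 CPM in MetOP saline. Every PYY library, A220 included, lay above every saline library. Gja4 had a log2 fold change of 1.84 ± 0.56 (SE; edgeR adjusted p = 0.853), and of 2.01 ± 0.60 without A220. Groups did not overlap either for Podxl, a sialomucin of the luminal surface, at 72.4, 59.9, 79.0 and 40.6 CPM with PYY against 37.1, 36.3, 20.7, 26.4 and 40.0 CPM in MetOP saline. These 2 of 34 members compare with 1.11% of all genes that lay wholly above saline, and 0 members lay wholly below it, against 0.825%. The other adhesion genes had log2 fold changes from 0.64 (Esam) to 1.18 (Pecam1), with the adherens junction cadherin gene Cdh5 at 0.77 and the leukocyte ligand gene Icam2 at 0.72.

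Receptor genes were higher with PYY in 12 of 12 cases, 9 of them at an unadjusted p under 0.05. Ptprb encodes VE-PTP, a phosphatase that restrains Tie2. It was at 103, 87.4, 120.3 and 43.6 CPM with PYY, against 44.5, 47.5, 28.1, 44.7 and 38.5 CPM in MetOP saline. PYY A215, A216 and A219 lay above every saline library and A220 lay among them. Ptprb had a log2 fold change of 1.12 ± 0.30 (edgeR adjusted p = 0.839), and of 1.35 ± 0.29 without A220 (adjusted p = 0.110). Its substrate receptor gene Tek (Tie2) had 0.93 ± 0.40 and Tie1, which modulates Tie2, 0.84 ± 0.39. Adgrl4 encodes an adhesion G protein-coupled receptor of endothelium. It was at 48.7, 32.3, 68.2 and 13.6 CPM with PYY and at 14.9, 20.3, 15.2, 21.1 and 15.8 CPM in MetOP saline (log2 fold change 1.22 ± 0.39, and 1.51 ± 0.37 without A220). Here A220 lay below all 5 saline libraries, and the other 3 PYY libraries lay above them. Robo4, an endothelial roundabout receptor that stabilises vessels, was at 12.3, 7.01, 15.1 and 6.04 CPM with PYY and at 6.01, 4.96, 4.68, 1.81 and 6.05 CPM in MetOP saline (1.11 ± 0.35, and 1.29 ± 0.37 without A220). Of the VEGF receptors, Kdr (VEGFR2) had a log2 fold change of 0.49 ± 0.31, Flt1 (VEGFR1) of 0.60 ± 0.28 and Flt4 of 1.29 ± 1.07.

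Among surface and matrix genes, 9 of 10 were higher with PYY, all 9 at an unadjusted p under 0.05. Ecscr, an endothelial surface regulator of chemotaxis, had the smallest p of all members. Its level was 5.79, 7.15, 11.1 and 1.70 CPM with PYY, against 1.51, 1.93, 2.34, 0.398 and 1.21 CPM in MetOP saline. Again A220 alone lay within the saline range. Ecscr had a log2 fold change of 2.13 ± 0.53 (edgeR adjusted p = 0.839), and of 2.45 ± 0.52 without A220 (adjusted p = 0.110). Plvap, the diaphragm protein of fenestrae (1.78 ± 0.78), and the sialomucin gene Cd34 (1.67 ± 0.48) were next in size. Which cells of the femur gave the Cd34 counts was not tested. Vwf, von Willebrand factor of endothelium and megakaryocytes, had 1.00 ± 0.36, while the other megakaryocyte and platelet genes were lower in 11 of 11 (median -1.40). Tspan7, found in endothelium among other cells, was the exception, at 14.8, 13.5, 22.02 and 30.8 CPM with PYY against 20.4, 25.7, 16.7, 23.6 and 25.2 CPM in MetOP saline. Here A220 was the highest PYY library, the reverse of its place for most members. The log2 fold change was -0.14 ± 0.27, it was -0.41 ± 0.28 without A220, and it was positive, at 0.12, with the muscle level as a covariate.

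Of the transcription factor genes, 3 of 4 were higher with PYY and 1 had an unadjusted p under 0.05. That was the SoxF gene Sox7, at 5.96, 6.41, 10.8 and 3.01 CPM with PYY, against 5.01, 1.88, 0.869, 2.24 and 5.21 CPM in MetOP saline (log2 fold change 1.10 ± 0.47, and 1.34 ± 0.49 without A220). Sox18, its SoxF relative, was at 3.46, 4.95, 4.49 and 1.23 CPM with PYY, against 3.59, 2.70, 4.08, 1.77 and 7.32 CPM in MetOP saline (-0.14 ± 0.63). The groups overlapped for both. The ETS factor gene Erg, which maintains endothelial identity, had 0.58 ± 0.41.

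**Figure D2:**
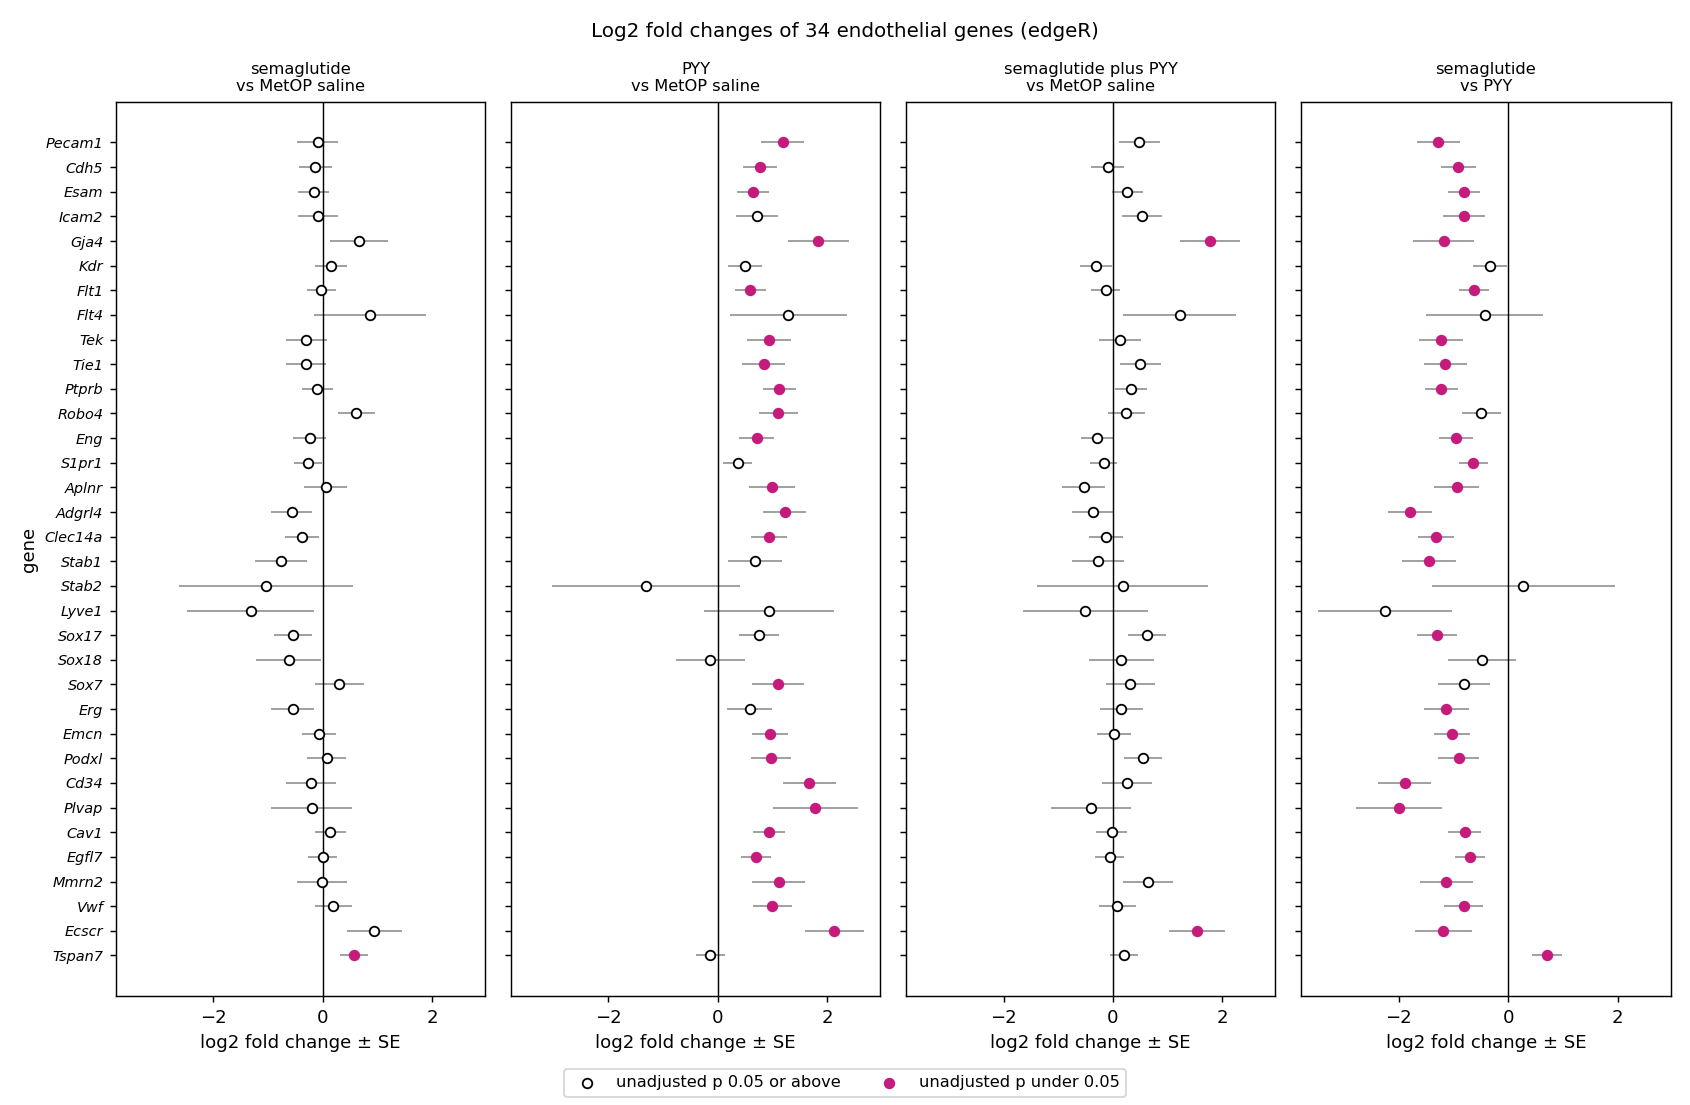
Log2 fold change (x axis, edgeR, bars ± SE) of each of the 34 members (y axis) in 4 comparisons, filled where the unadjusted p was under 0.05. In PYY versus MetOP saline 23 members were filled on the higher side, and in semaglutide versus PYY 26 were filled on the lower side.

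The genes that mark vessel types were set beside each other over all 5 groups. Stab1 (chromosome 16, 6330444 to 6360923), a scavenger receptor of sinusoids and of macrophages, was at 5.69, 4.67, 4.10, 5.72 and 4.56 CPM in the combination and at 6.46, 2.62, 2.13, 1.25 and 5.09 CPM with semaglutide. It was at 5.38, 13.9, 16.6 and 2.42 CPM with PYY, at 9.91, 5.28, 5.75, 5.32 and 3.57 CPM in MetOP saline and at 10.6, 2.79, 3.97 and 4.98 CPM in healthy controls. PYY A216 and A219 were the highest of all 23 libraries, while A220 lay below the whole saline range. The log2 fold change of PYY versus MetOP saline was 0.68 ± 0.50, and 1.00 ± 0.47 without A220 (edgeR adjusted p = 0.576).

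Stab2 (chromosome 7, 21249391 to 21434042), the hyaluronan scavenger receptor of sinusoids, had low counts. It was at 0.239, 0.235, 2.52, 0 and 0.911 CPM in the combination, at 0, 0.576, 0.685, 0.231 and 0.185 CPM with semaglutide and at 0, 0.418, 0.384 and 0.297 CPM with PYY. MetOP saline had 0.591, 1.47, 0, 0 and 1.39 CPM and healthy controls 0, 0, 0.411 and 0.829 CPM. All groups overlapped and each held at least 1 library without a count. Combination A253, with 65 counts, was the highest, and its Lyve1 level of 3.68 CPM was the highest of its group too. The log2 fold change of PYY versus MetOP saline was -1.32 ± 1.71, and -1.36 ± 1.94 without A220, each with an SE above its size.

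Flt4 (chromosome 10, 33913608 to 33954770) was at 1.39, 1.01, 0.658, 2.71 and 2.36 CPM in the combination, at 1.06, 1.55, 0.305, 2.27 and 1.14 CPM with semaglutide and at 1.77, 2.68, 2.10 and 0.257 CPM with PYY. MetOP saline had 1.44, 0.819, 0, 1.16 and 0 CPM and healthy controls 1.35, 0, 0.548 and 0.533 CPM. PYY A215, A216 and A219 lay above all saline and control libraries, and A220 lay within both ranges. The log2 fold changes against MetOP saline were 1.22 ± 1.03 for the combination, 0.86 ± 1.02 for semaglutide and 1.29 ± 1.07 for PYY (1.65 ± 1.12 without A220), none of which passed.

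Sox17 (chromosome 5, 15016731 to 15022228), the arterial SoxF factor, was at 12.6, 5.41, 15.4, 25.5 and 26.9 CPM in the combination and at 6.85, 9.09, 7.39, 8.73 and 6.01 CPM with semaglutide. It was at 15.97, 17.0, 28.1 and 13.7 CPM with PYY, at 9.45, 15.4, 8.49, 5.14 and 17.3 CPM in MetOP saline and at 13.4, 9.14, 13.7 and 15.8 CPM in healthy controls. All 5 semaglutide libraries lay below all 4 PYY libraries, A220 included, and below all 4 controls. Combination A318 and A320 lay above every saline and control library.

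Emcn (chromosome 2, 225891100 to 225970929), the type H sialomucin, was at 18.2, 12.4, 11.3, 17.5 and 12.8 CPM in the combination and at 12.4, 14.9, 6.59, 17.99 and 16.5 CPM with semaglutide. It was at 30.0, 27.5, 40.5 and 13.2 CPM with PYY, at 18.8, 19.2, 5.95, 14.8 and 12.5 CPM in MetOP saline and at 18.9, 10.8, 14.9 and 15.0 CPM in healthy controls. PYY A215, A216 and A219 exceeded every library of the other groups. The log2 fold change of PYY versus MetOP saline was 0.96 ± 0.33 (edgeR adjusted p = 0.853), and that of Sox17 was 0.75 ± 0.37 (adjusted p = 1.00). Without A220 they were 1.19 ± 0.32 for Emcn (adjusted p = 0.240) and 0.87 ± 0.39 for Sox17 (0.563). In the combination versus MetOP saline Emcn had 0.01 ± 0.31 and Sox17 had 0.62 ± 0.35.

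**Figure D3:**
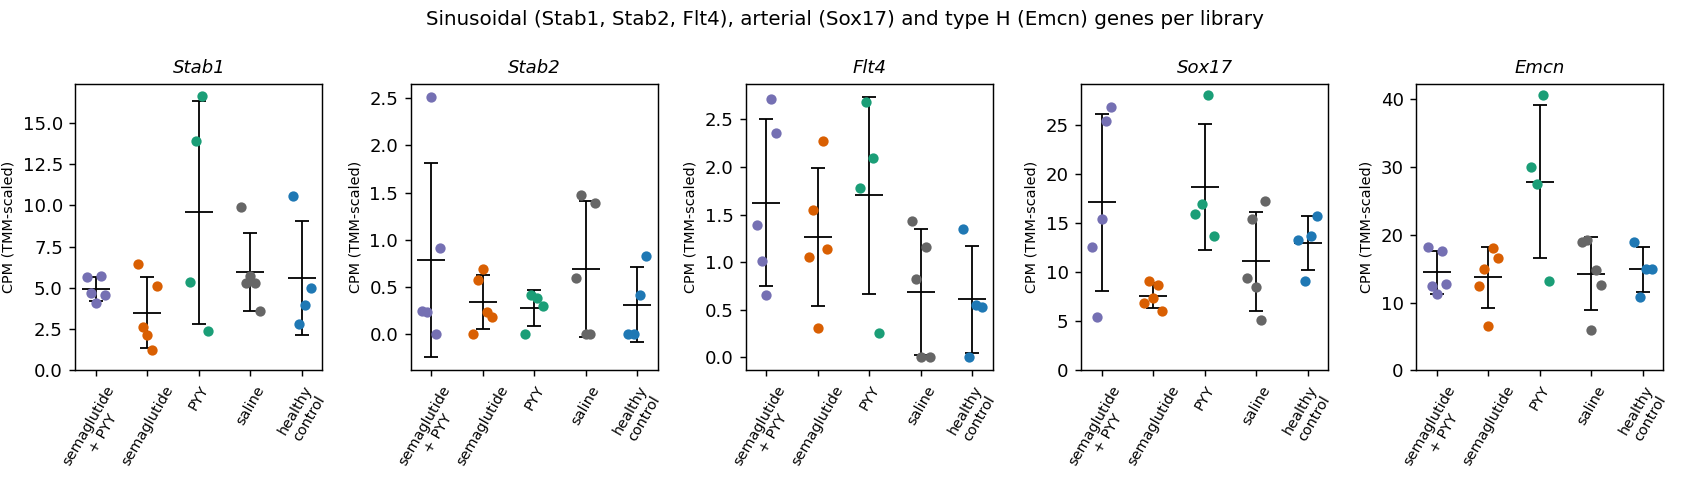
TMM-scaled CPM (y axis) of Stab1, Stab2, Flt4, Sox17 and Emcn by group (x axis), 1 point per library, with the group mean and SD as bars. The highest Stab1, Sox17 and Emcn points are PYY libraries (16.6, 28.1 and 40.5 CPM), semaglutide libraries are low and close together for Sox17, and Stab2 overlaps in all groups.

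Ratios within a library set sinusoidal, arterial and type H genes against each other. Type H is named for high Pecam1 and Emcn together, so Emcn alone does not measure that vessel type. Depth cancels in Emcn over Sox17, both of which were counted in every library. In the 7 libraries with a Stab2 count of 0, the Stab2 ratios rest on the added 0.5 and so follow depth and the level of the partner gene, and these 7 hold the lowest Stab2 over Sox17 values. On the log2 scale of counts + 0.5, Emcn over Sox17 averaged -0.07 ± 0.91 in the combination (SD, n = 5), 0.78 ± 0.60 with semaglutide (n = 5), 0.52 ± 0.41 with PYY (n = 4), 0.37 ± 0.89 in MetOP saline (n = 5) and 0.20 ± 0.24 in healthy controls (n = 4). Stab2 over Sox17 averaged -5.55 ± 2.85 in the combination, -5.17 ± 1.97 with semaglutide, -6.75 ± 2.26 with PYY, -5.42 ± 2.43 in MetOP saline and -6.87 ± 2.67 in healthy controls. Stab2 over Emcn averaged -5.48 ± 2.84 in the combination, -5.95 ± 2.27 with semaglutide, -7.27 ± 2.54 with PYY, -5.79 ± 2.75 in MetOP saline and -7.07 ± 2.89 in healthy controls. None of the 12 differences tested (3 ratios in 4 comparisons) passed an exact two-sided permutation test, with the smallest adjusted p at 0.921. The smallest raw exact p was 0.349, for Stab2 over Sox17 in MetOP saline versus healthy control (difference 1.46). The smallest exact p these groups allow is 0.00794 for 5 against 5 and 0.0159 for 5 against 4. The SD of the Stab2 ratios was at least 1.97 log2 units in every group, so shifts of Stab2 within that spread were not detectable at this depth.

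Semaglutide versus PYY sets 1 drug against the other. Most members were lower with semaglutide. The member median was -0.94 on the log2 scale against -0.06 over all genes. In sign, 32 of 34 members were lower with semaglutide, against 53.3% of all genes, and 2 were higher, against 46.7%. Under the other settings 1 to 4 were higher. At an unadjusted p under 0.05, 26 were lower, against 9.93%, and 1 was higher, against 6.93%. None passed the edgeR adjustment, where 0.00655% of all genes were called lower. The smallest adjusted p belonged to Adgrl4 (0.0710) and Ptprb (0.0778). This comparison and that of PYY with MetOP saline share the PYY libraries.

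Adgrl4 was at 10.2, 18.1, 7.92, 10.8 and 11.8 CPM with semaglutide, against 48.7, 32.3, 68.2 and 13.6 CPM with PYY. Only semaglutide A240 lay above PYY A220. The log2 fold change was -1.79 ± 0.40. Ptprb was at 34.1, 44.0, 30.4, 38.9 and 42.6 CPM with semaglutide, against 103, 87.4, 120.3 and 43.6 CPM with PYY (-1.22 ± 0.30), and again 1 semaglutide library lay just above A220. Groups did not overlap for 4 of 34 members, Sox17, Gja4, Tek and Esam, all lower with semaglutide, against 2.98% of all genes. Gja4 was at 2.90, 3.19, 4.68, 2.31 and 3.82 CPM with semaglutide and at 8.26, 10.6, 6.92 and 4.85 CPM with PYY (-1.18 ± 0.55). Sox17 had a log2 fold change of -1.30 ± 0.37 (edgeR adjusted p = 0.114), Emcn of -1.02 ± 0.33 (0.155) and Stab1 of -1.45 ± 0.50 (0.180). Stab2 had 0.28 ± 1.67, which turned to -0.22 without PYY A215 and to -0.15 without semaglutide A241.

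Tspan7 was the only member higher with semaglutide than with PYY at an unadjusted p under 0.05. It was at 43.7, 29.4, 25.1, 34.3 and 33.5 CPM with semaglutide, against 14.8, 13.5, 22.02 and 30.8 CPM with PYY (log2 fold change 0.71 ± 0.27, edgeR adjusted p = 0.211). All semaglutide libraries lay above PYY A215, A216 and A219, and A220 lay among them.

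The count of members called between semaglutide and PYY turned on A220. Without it the member median was -1.19, against -0.09 over all genes, and edgeR called 14 members lower, against 3.73% of 15717 genes tested, and 1 higher (Tspan7, 0.98 ± 0.28), against 2.76%. The 14 comprised the junction genes Pecam1 and Cdh5, the receptor genes Tek, Tie1, Ptprb, Eng, Adgrl4 and Clec14a, the scavenger gene Stab1, the arterial factor gene Sox17 and the surface and matrix genes Emcn, Cd34, Cav1 and Egfl7. Adgrl4 then had a log2 fold change of -2.08 ± 0.37 (adjusted p = 0.00551), Clec14a, which binds the matrix protein multimerin 2, -1.60 ± 0.29 (0.00646), Sox17 -1.42 ± 0.39 (0.0361), Emcn -1.25 ± 0.32 (0.0275) and Stab1 -1.77 ± 0.47 (0.0325). A220 was set apart by its low levels of these same members. Leaving it out widened this difference, so these calls are not independent of that choice. When any other library of these groups was left out, edgeR called no member. A fit of all 23 libraries with DESeq2 called 6 of 33 members lower, against 3.6% of its genes, namely Adgrl4, Ptprb, Clec14a, Cd34, Sox17 and Pecam1. Clec14a was at 12.6, 11.2, 10.8, 15.1 and 9.16 CPM with semaglutide, against 38.6, 27.3, 41.7 and 10.1 CPM with PYY. Cd34 was at 6.14, 7.54, 3.85, 4.71 and 6.04 CPM with semaglutide, against 36.5, 15.3, 25.0 and 7.13 CPM with PYY. Pecam1 was at 51.5, 52.1, 32.9, 38.0 and 27.4 CPM with semaglutide, against 134, 81.2, 137 and 38.4 CPM with PYY. For all 3 genes PYY A215, A216 and A219 lay above every semaglutide library and A220 lay among them. With limma voom 0 members were called, against 0.00655% of genes. With the muscle level as a covariate 14 members had an unadjusted p under 0.05 on the lower side, in place of 26. The share of all genes at such a p was not computed with this covariate.

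With the combination, set against MetOP saline, the member median was 0.15 on the log2 scale against 0.02 over all genes, with 21 of 34 members higher against 52.5% of all genes. No member lay wholly above the saline range (0 of 34, against 0.177% of all genes). The median ran from -0.10 to 0.32 over the other settings. At an unadjusted p under 0.05, 2 members were higher, against 1.46% of all genes, and 0 were lower, against 1.6%. None passed (0% called). Gja4 was at 2.92, 3.73, 0.890, 9.68 and 19.3 CPM in the combination, against 3.03, 2.58, 2.20, 1.09 and 1.76 CPM in MetOP saline (log2 fold change 1.77 ± 0.54). A318 and A320 were far above and A253 was below every saline library. Ecscr was at 2.68, 1.21, 4.57, 4.80 and 8.07 CPM in the combination, against 1.51, 1.93, 2.34, 0.398 and 1.21 CPM in MetOP saline (1.53 ± 0.51), with 4 of 5 combination libraries above all saline libraries. Pecam1 was likewise highest in A318 and A320, at 101 and 104 CPM, against 34.7, 34.4 and 25.9 CPM in the other 3 combination libraries.

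The lower members of smallest p were receptor genes. Aplnr, the apelin receptor of venous and sprouting endothelium, was at 5.54, 4.53, 4.03, 4.09 and 1.04 CPM in the combination, against 7.01, 3.93, 8.75, 4.71 and 3.51 CPM in MetOP saline (-0.54 ± 0.40). A320 was the lowest of all these libraries, although it was the highest of the combination for 17 of the 34 members. Kdr was at 14.3, 10.6, 9.21, 11.3 and 12.6 CPM in the combination, against 15.8, 21.96, 12.4, 7.96 and 14.1 CPM in MetOP saline (-0.32 ± 0.29). The groups overlapped for both.

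Adding PYY to semaglutide, the combination versus semaglutide alone, gave a member median of 0.39 against 0.05 over all genes. By sign 24 of 34 members were higher, against 53.7% of all genes, and 10 were lower, against 46.3%. At an unadjusted p under 0.05, 3 members were higher, against 3.99% of all genes, and 0 were lower, against 1.66%, and none passed (0% called). The 3 became 1 without combination A318 or A320, 1 without semaglutide A238 or A243, and 7 without combination A251. They also became 1 with limma voom, with the muscle covariate and with only the compared groups fitted. The share of all genes was not computed for these fits. Sox17 had the smallest p, at 12.6, 5.41, 15.4, 25.5 and 26.9 CPM in the combination against 6.85, 9.09, 7.39, 8.73 and 6.01 CPM with semaglutide. All combination libraries except A251 lay above every semaglutide library (log2 fold change 1.17 ± 0.35, edgeR adjusted p = 0.816). Tie1 was at 15.97, 12.2, 12.4, 35.6 and 47.8 CPM in the combination and at 14.0, 17.6, 12.3, 12.6 and 14.4 CPM with semaglutide (0.81 ± 0.38), with A318 and A320 apart from the rest. Aplnr was at 5.05, 6.25, 3.65, 4.81 and 9.19 CPM with semaglutide, which put the combination at -0.59 ± 0.40. Kdr was at 20.6, 19.0, 8.87, 12.1 and 20.1 CPM with semaglutide, and the combination stood at -0.47 ± 0.29.

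Adding semaglutide to PYY, the combination versus PYY alone, gave a member median of -0.77 against 0.02 over all genes. The PYY libraries here are those of PYY versus MetOP saline, so the 2 comparisons are not independent. With an unadjusted p under 0.05, 15 of 34 members were lower, against 4.19% of all genes, and 0 were higher, against 2.05%, and none passed (0% called). Without A220 the median was -0.98, against 0.03 over all genes, and over the other settings the count of such lower members ran from 12 to 21. The matching share of all genes was not computed for those settings. Adgrl4 was at 16.5, 9.07, 6.39, 16.6 and 19.2 CPM in the combination, against 48.7, 32.3, 68.2 and 13.6 CPM with PYY (log2 fold change -1.59 ± 0.40, edgeR adjusted p = 0.658). Without A220 the Adgrl4 value was -1.88 ± 0.37 (adjusted p = 0.0537), which still missed the threshold. Aplnr was at 5.54, 4.53, 4.03, 4.09 and 1.04 CPM in the combination, against 7.45, 12.4, 19.2 and 5.41 CPM with PYY (-1.53 ± 0.42, and -1.76 ± 0.43 without A220). Only combination A248 reached the PYY range for Aplnr, above A220 alone. Tspan7 was at 30.9, 35.8, 16.6, 30.9 and 14.3 CPM in the combination and 0.34 ± 0.27 above PYY on the log2 scale, and Stab2 was at 1.49 ± 1.72. Without A220 these log2 fold changes were 0.61 ± 0.28 for Tspan7 and 1.53 ± 1.96 for Stab2. The 5 junction genes and 3 of 4 transcription factor genes were lower in sign, by little for Gja4 (-0.07 ± 0.55) and Sox17 (-0.12 ± 0.37), and Sox18 was at 0.29 ± 0.63. Genes of other cell types differed in the same comparison. Fibroblast genes were lower in 9 of 10 (median -1.96, 8 at an unadjusted p under 0.05), osteoblast genes were lower in 9 of 10 (median -1.41, 5 at such a p) and neutrophil genes were higher in 9 of 9 (median 1.54, 3 at such a p). Their part in the result was not tested.

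The interaction asks whether the combination departed from the sum of the log2 effects of both drugs. It had a member median of -0.70 against 0.03 over all genes, and 6 of 34 members were lower at an unadjusted p under 0.05, against 1.7% of all genes, with 0 higher, against 2.89%. None passed (0% called). The interaction holds the same PYY and saline libraries as PYY versus MetOP saline, so it is not independent of that comparison. Without PYY A220 the median was -0.93, against 0.09 over all genes. The 6 became 15 without PYY A220, 9 without semaglutide A241, 9 and 10 without combination A318 and A320, and 3 without PYY A219. For these fits the share of all genes at such a p was not computed, so it is open whether only the members moved. The smallest p values belonged to Robo4 (-1.48 ± 0.49) and Aplnr (-1.59 ± 0.58), both at an edgeR adjusted p of 0.999. Without PYY A220 the values were -1.67 ± 0.50 for Robo4 and -1.82 ± 0.57 for Aplnr. Robo4 was at 5.64, 4.84, 3.99, 6.64 and 6.63 CPM in the combination, at 8.65, 8.03, 4.87, 7.05 and 7.40 CPM with semaglutide and at 12.3, 7.01, 15.1 and 6.04 CPM with PYY, against 6.01, 4.96, 4.68, 1.81 and 6.05 CPM in MetOP saline. All groups overlapped, and the highest levels were those of PYY A215 and A219. On the other side stood Stab2 (2.53 ± 2.34) and Sox18 (0.91 ± 0.86).

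Semaglutide versus MetOP saline asks how semaglutide alone bears on the model. Its member median was -0.09 on the log2 scale against -0.04 over all genes. By sign 12 of 34 members were higher, against 47.6% of all genes. At an unadjusted p under 0.05, 1 member was higher, against 4.18% of all genes, and 0 were lower, against 7.24%, and none passed (0% called). That member was Tspan7, at 43.7, 29.4, 25.1, 34.3 and 33.5 CPM with semaglutide against 20.4, 25.7, 16.7, 23.6 and 25.2 CPM in MetOP saline (0.57 ± 0.25, edgeR adjusted p = 0.407). Only semaglutide A241 lay within the saline range. Ecscr was at 2.39, 3.72, 1.83, 4.05 and 2.16 CPM with semaglutide (0.94 ± 0.50), Stab1 had -0.77 ± 0.48 and Sox17 -0.55 ± 0.35. For Sox17, 3 of 5 semaglutide libraries lay below all saline libraries but A232, which was lower than all of them.

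MetOP saline versus healthy control asks whether the disease model altered the endothelial set. The member median was -0.06 against 0.04 over all genes, and its sign varied over the other settings, from -0.19 to 0.17. Members higher in sign numbered 12 of 34, against 52.5% of all genes, but 26 without control A387 and 8 without control A389, and 22 were lower, against 47.4%. At an unadjusted p under 0.05, 1 member was lower, against 1.87% of all genes, and 0 were higher, against 4.68%, and none passed (0% called). Ecscr was at 1.51, 1.93, 2.34, 0.398 and 1.21 CPM in MetOP saline and at 4.06, 3.26, 3.74 and 2.96 CPM in healthy controls. The groups did not overlap for this 1 of 34 members, against 1.2% of all genes (log2 fold change -1.25 ± 0.53, edgeR adjusted p = 0.710). Gja4 was at 3.03, 2.58, 2.20, 1.09 and 1.76 CPM in MetOP saline and at 2.85, 2.37, 4.61 and 6.81 CPM in controls (-0.96 ± 0.56). Sox18 was at 3.59, 2.70, 4.08, 1.77 and 7.32 CPM in MetOP saline and at 2.21, 0.677, 2.51 and 1.90 CPM in controls (1.09 ± 0.65). Sox7 was at 5.01, 1.88, 0.869, 2.24 and 5.21 CPM in MetOP saline and at 1.57, 2.33, 1.46 and 1.78 CPM in controls (0.77 ± 0.49). The groups overlapped for these 3 genes, and the highest levels were those of saline A265 for Sox18 and of saline A224 and A265 for Sox7.

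Endothelial genes outside the set, from lists compiled with results of these data known, were placed beside the members. Whether the listed genes are specific to endothelium in this tissue was not tested. With PYY versus MetOP saline, 21 of 24 other pan-endothelial genes were higher (median log2 fold change 0.43, 8 at an unadjusted p under 0.05), among them the melanoma cell adhesion gene Mcam (1.11 ± 0.31) and Rasip1, needed for vessel lumen formation (1.04 ± 0.35). Of 15 arterial and Notch genes 14 were higher (median 0.62), with the Notch ligand gene Jag1 at 0.97 ± 0.39 and the semaphorin co-receptor gene Nrp1 at 0.48 ± 0.22. Of 12 tested venous and sinusoidal genes 8 were higher (median 0.59), with thrombomodulin (Thbd) at 1.22 ± 0.37 and the cytokine receptor gene Il6st at 1.13 ± 0.36. Clec4g, Oit3 and Gata4 of this list were not tested. Clec4g, a lectin gene of sinusoidal endothelium, had no count in any group, and Oit3 had counts only with PYY. Tip cell genes were higher in 7 of 9, with angiopoietin 2 (Angpt2), a Tie2 ligand, at 1.30 ± 0.37 and Pdgfb, which recruits pericytes, at 1.14 ± 0.42.

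In semaglutide versus PYY the other pan-endothelial genes were lower in 23 of 24 (median -0.85, 11 at an unadjusted p under 0.05), and arterial and Notch genes in 15 of 15 (median -0.90, 9 at such a p). In the combination versus semaglutide all 15 arterial and Notch genes were higher (median 0.73, 4 at such a p). With semaglutide versus MetOP saline 13 of 15 were lower (median -0.32). None of these genes passed the edgeR adjustment.

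Genes of other cell types of the femur differed in level beside the endothelial set. In PYY versus MetOP saline, 12 of 13 smooth muscle and pericyte genes were higher (median log2 fold change 1.10), with the pericyte gene Rgs5 at 2.22 ± 0.64 and smooth muscle actin (Acta2) at 1.51 ± 0.53. Their summed level ran from 569 to 1272 CPM with PYY and from 669 to 853 CPM in MetOP saline. All 10 fibroblast genes were higher (median 1.10), with fibrillin 1 (Fbn1) at 2.91 ± 0.58, and their summed level ran from 133 to 3318 CPM with PYY and from 279 to 1253 CPM in MetOP saline. PYY A220 was the lowest PYY library on both the fibroblast level (3.002 as mean log2 CPM, against 5.22 to 6.91 in the other 3) and the smooth muscle and pericyte level (4.57, against 4.75 to 5.46), although its summed smooth muscle CPM was not the lowest. Of the 18 skeletal muscle genes, 15 had a lower level (median -0.59), with a summed level of 4338 to 36412 CPM with PYY and 22138 to 47346 CPM in MetOP saline. Megakaryocyte and platelet genes, summed, ran from 6.92 to 31.9 CPM with PYY and from 12.4 to 107 CPM in MetOP saline. As mean log2 CPM (± SD), the neutrophil level was 3.36 ± 0.95 with PYY (n = 4) and 4.97 ± 0.52 in MetOP saline (n = 5). The erythroid level was 6.27 ± 1.02 with PYY and 7.13 ± 0.96 in MetOP saline, and the osteoblast level 5.09 ± 1.75 and 5.50 ± 1.28. No gene of the fibroblast, smooth muscle, skeletal muscle or megakaryocyte lists was at 0 in a whole group. In semaglutide versus PYY, all 10 fibroblast genes were lower (median -2.70, 9 at an unadjusted p under 0.05), as were all 10 osteoblast genes (median -2.29, 9 at such a p), all 12 tested macrophage genes (median -1.10, 3 at such a p) and 10 of 13 smooth muscle and pericyte genes (median -1.20), and all 18 skeletal muscle genes were higher (median 1.45). Stab1 is also a macrophage gene. The summed macrophage level ran from 16.9 to 58.6 CPM with semaglutide and from 33.5 to 92.4 CPM with PYY, and the osteoblast level from 183 to 778 CPM with semaglutide and from 192 to 6989.8 CPM with PYY. The summed smooth muscle and pericyte level went against the sign of most of its genes. It ran from 1103 to 1423 CPM with semaglutide (median 1295) and from 569 to 1272 CPM with PYY (median 1045). Semaglutide was also set against MetOP saline. There all 10 osteoblast genes were lower (median -2.33, 9 at an unadjusted p under 0.05, against 7.24% of all genes). All 12 tested macrophage genes (median -1.22, 6 at such a p) and all 10 erythroid genes (median -1.54, 6 at such a p) were lower too. Fibroblast genes were lower in 9 of 10 (median -1.37, 5 at such a p), and all 18 skeletal muscle genes were higher (median 0.85). Apart from the muscle covariate, the part of these cell types in the endothelial differences was not tested.

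**Figure D4:**
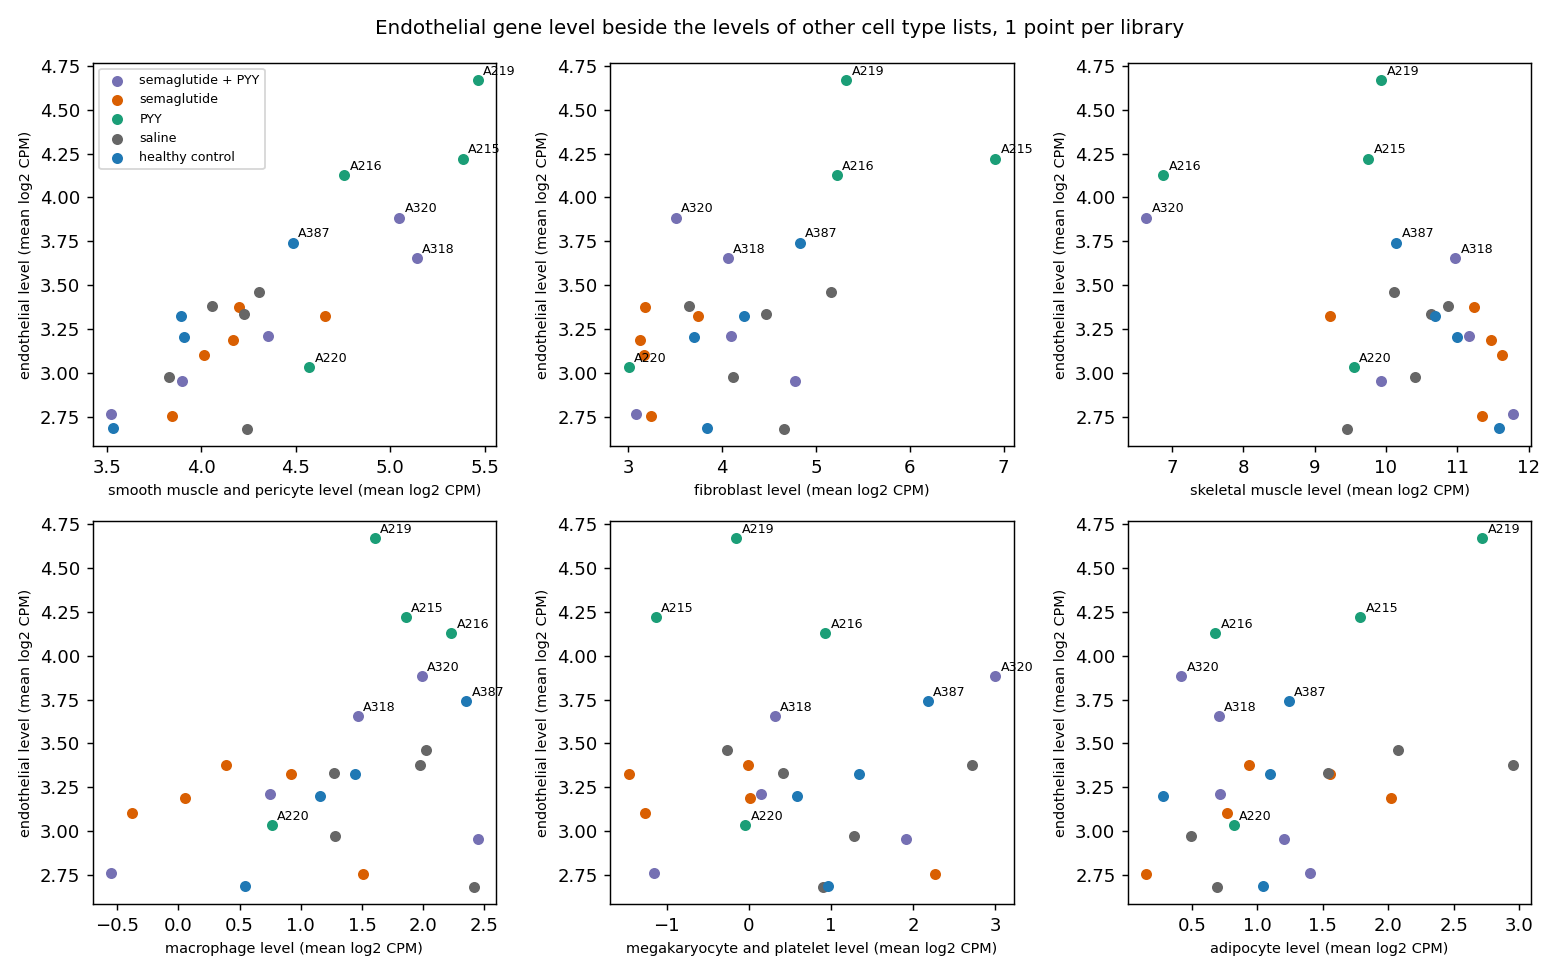
Endothelial level (y axis, mean log2 CPM of the 34 members) against the level of 6 other cell type lists (x axes, mean log2 CPM), 1 point per library, with the highest libraries and PYY A220 labelled. PYY A215, A216 and A219 are highest on the endothelial axis and also high on the smooth muscle and pericyte and fibroblast axes, whereas A220 has a fibroblast level of 3.002.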

How the data were processed

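Bulk RNA-seq of 23 rat femur libraries was analysed from 2 deposited tables. The authors' table of raw read counts per gene was used for all tests, and their table of FPKM values for the order of levels between genes and as an alternative for ratios. The submitters' processing notes name the mRatBN7.2 build and DESeq2 1.42.0, and name neither aligner nor counter. Library construction, per the labels' protocols, is described for both stranded and unstranded libraries, so reads of overlapping or antisense genes may be mixed.

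Counts were fitted with edgeR 4.0.16 (quasi-likelihood test, TMM factors, filterByExpr by group, all 5 groups in 1 model with 18 residual degrees of freedom), and p-values were adjusted by Benjamini-Hochberg over all 15271 genes at a threshold of 0.05. The common biological coefficient of variation was 69.9%. The fit was tested on simulated data. Within-library ratios were compared by exact two-sided permutation tests with scipy 1.17.1. Alternatives used DESeq2 1.42.0, limma 3.58.1 voom, other factors, no filter, no mitochondrially encoded genes, a skeletal muscle covariate, only the groups compared, FPKM + 0.1 for ratios, and each library left out. Over the 42 pairs of libraries within a group, chi-square divided by its degrees of freedom was at least 50.1, so no pair agreed within sampling noise.

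Every sample's value is given for Stab1, Stab2, Flt4, Sox17 and Emcn. Values by library are also given for members called on all 23 libraries by any tool, and for the 2 members of smallest p in each direction of each comparison. For many of these, not all 5 groups are shown. Genes called only when PYY A220 was left out, and Pecam1 and Podxl, were named after their values were seen. Genes outside the set are the 2 of smallest p in a list, apart from those named as not tested. The members and lists were chosen with earlier results of these data known. Count floors cover counting error only.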

Additional observations from a re-analysis of the deposited data

Results flagged for a closer look

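In 9 of 170 groups of CPM values of a member, 1 library stood far from the others of its group, and chance alone marks about 1 in 20 groups. Healthy control A387 was high for Cd34, at 16.03 CPM against 2.78 to 4.74 in the other controls, and for Erg, at 16.6 against 5.29 to 6.34. Semaglutide A242 was high for Egfl7, at 29.8 CPM where the rest of that group had 17.0 to 19.5, and for Sox18, at 6.23 against 1.03 to 2.27. PYY A220 was low for Kdr, at 9.57 CPM against 23.7 to 24.4 in the other PYY libraries. Combination A320 was high for Icam2, at 30.2 CPM against 5.98 to 12.8 in the other combination libraries, and A253 was high for Lyve1, at 3.68 against 0 to 0.534. MetOP saline A265 was high for Eng, at 29.96 CPM against 15.6 to 19.2 in the other saline libraries, and for Lyve1, at 5.39 against 0.134 to 1.13.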

How the results depend on the processing

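No member was called in the other 7 comparisons under any alternative run or without any library. In semaglutide versus PYY the count was 6 with DESeq2, and it ran from 0 to 15 when 1 library was left out, with 15 only without PYY A220. The member medians kept their direction in 6 comparisons, all but MetOP saline versus healthy control and the combination versus MetOP saline. Tspan7 in PYY versus MetOP saline turned to 0.12 with the muscle covariate and ran from -0.41 to 0.0612 without 1 library. Stab2 in semaglutide versus PYY ran from -0.22 to 0.60 without 1 library. The cause was not tested.

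With FPKM + 0.1, log2 Stab2/Sox17 differed by 0.58 in MetOP saline versus healthy control and by -1.12 in PYY versus MetOP saline (exact permutation p = 0.0159 for both, the smallest possible), and log2 Stab2/Emcn by -1.27 in PYY versus MetOP saline (exact permutation p = 0.0476), none adjusted. Log2 Stab2/Emcn in the combination versus MetOP saline turned to -0.0687. The pseudocount exceeds the mean Stab2 FPKM. Leaving out 1 library, log2 Stab2/Sox17 ran from -0.43 to 1.07 for semaglutide and from -0.86 to 1.05 for the combination, each versus MetOP saline. Log2 Stab2/Emcn ran from -1.13 to 0.69 and from -0.66 to 1.37 in the same comparisons. Log2 Emcn/Sox17 ran from -0.11 to 0.40 in MetOP saline versus healthy control and from -0.0757 to 0.43 in PYY versus MetOP saline. All genes shifted by -0.12 with the muscle covariate and by -0.11 with voom in the combination versus PYY, and by -0.12 with voom in the interaction. No paired analysis was possible because replicate numbers are unique to each library. Depth limits Stab2, Flt4 and Lyve1, which had no count in some libraries.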
